A study of Homo sapiens with 5 samples.

Results

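The genes described here are 43 enzymes and regulators of redox defence: the sensor pair NFE2L2 and KEAP1 with its classic target enzymes, thioredoxins and peroxiredoxins, the enzymes that make and use glutathione, superoxide dismutases, catalase, glutaredoxins and ferritin. They were taken by name from a fixed list, which was chosen with earlier results of these data known. All 43 were among the 26485 genes of the count files. Their RNA was read with QuantSeq, a kit that sequences near the poly(A) tail, in 5 libraries. The cells were SW480, a long-used human line from a colorectal tumour. All 5 came from cells with dCas9-KRAB, which joins a Cas9 that cannot cut DNA to a transcriptional repressor domain. In 2 of them the cells had received control guide RNAs, and in 3 a guide RNA against AKAP12, a scaffold protein of kinase signalling. RNA was taken 48 hours after seeding. In the sample titles the groups are called shControl and shAKAP12, which names another silencing method than the protocol does. The protocol was followed here. Whether the lines were clones or pools of transduced cells is not given in the sources used here.

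Cells meet hydrogen peroxide and other oxidants with chains of thiol enzymes. Peroxiredoxins and glutathione peroxidases reduce peroxides, and they are in turn recharged by thioredoxin with thioredoxin reductase or by glutathione with glutathione reductase. NRF2, the product of NFE2L2, is held down by KEAP1 and, once released, turns on many of these genes through the antioxidant response element. Colorectal cancer cells draw on the same systems to live with a high oxidant load.

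The antioxidant response element has the core letters TGACNNNGC, where N is any base. This core was searched on both strands of the RefSeq promoter windows (GRCh38.p14, 250 bases before to 50 after each transcript start). A window was given for 32 of the 43 genes, and 7 of them held a match: GCLM, GPX2, GSTO1, GSTP1, KEAP1, MGST1 and TXNRD1. That is 21.9% of these genes, against 16.1% of the 27305 genes with a window. Counted by window, 8 of the 48 member windows (16.7%) and 13.3% of all 35116 windows held the core. The core followed by an A was in windows of the same 7 genes, against 3.94% of all genes, and in 7 of the 48 windows, against 3.18% of all windows. Of these 7 genes GPX2 fell in the knockdown, GCLM, GSTO1, GSTP1, KEAP1 and TXNRD1 did not pass the test and MGST1 had too few reads to test. The windows of GCLM, GSTP1, TXNRD1 (the downstream one of its pair) and GPX2 are shown with the core in capitals, and those of GLRX and MGST3, which rose, are shown for comparison and hold no match. They are written 5' to 3' on the strand of the gene, and a match on the other strand appears as its reverse complement. The match in GSTP1 also holds the letters TGACTCA, the core bound by AP-1 factors.
GCLM, chr1:93909381-93909680, minus strand: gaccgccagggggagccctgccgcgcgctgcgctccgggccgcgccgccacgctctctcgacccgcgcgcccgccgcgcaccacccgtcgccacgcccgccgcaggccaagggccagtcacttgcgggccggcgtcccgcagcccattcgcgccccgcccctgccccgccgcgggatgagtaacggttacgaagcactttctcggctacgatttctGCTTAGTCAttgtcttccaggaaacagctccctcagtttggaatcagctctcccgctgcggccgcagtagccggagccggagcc
GSTP1, chr11:67583562-67583861, plus strand: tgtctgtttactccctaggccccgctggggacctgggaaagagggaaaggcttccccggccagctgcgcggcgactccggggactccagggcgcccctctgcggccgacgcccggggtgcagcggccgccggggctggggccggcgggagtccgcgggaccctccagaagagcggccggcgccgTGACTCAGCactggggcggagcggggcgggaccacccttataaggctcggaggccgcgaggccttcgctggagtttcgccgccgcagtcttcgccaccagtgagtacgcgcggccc
TXNRD1, chr12:104286782-104287081, plus strand: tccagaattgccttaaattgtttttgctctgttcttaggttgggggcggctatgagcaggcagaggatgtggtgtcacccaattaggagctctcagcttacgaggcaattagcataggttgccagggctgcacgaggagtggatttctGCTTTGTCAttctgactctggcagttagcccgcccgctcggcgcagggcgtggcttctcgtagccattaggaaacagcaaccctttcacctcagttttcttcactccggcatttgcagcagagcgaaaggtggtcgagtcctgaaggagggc
GPX2, chr14:64942696-64942995, minus strand: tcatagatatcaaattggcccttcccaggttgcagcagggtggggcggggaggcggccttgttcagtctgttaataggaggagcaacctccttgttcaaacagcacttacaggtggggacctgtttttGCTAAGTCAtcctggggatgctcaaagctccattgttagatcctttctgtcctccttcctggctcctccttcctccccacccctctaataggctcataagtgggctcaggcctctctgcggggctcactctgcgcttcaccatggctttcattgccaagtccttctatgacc
GLRX, chr5:95822677-95822976, minus strand: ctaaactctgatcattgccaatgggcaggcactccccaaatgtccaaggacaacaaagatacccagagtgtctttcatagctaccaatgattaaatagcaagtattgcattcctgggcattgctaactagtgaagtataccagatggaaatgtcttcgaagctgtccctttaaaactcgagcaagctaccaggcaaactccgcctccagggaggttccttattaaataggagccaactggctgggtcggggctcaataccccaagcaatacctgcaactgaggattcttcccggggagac
MGST3, chr1:165630984-165631283, plus strand: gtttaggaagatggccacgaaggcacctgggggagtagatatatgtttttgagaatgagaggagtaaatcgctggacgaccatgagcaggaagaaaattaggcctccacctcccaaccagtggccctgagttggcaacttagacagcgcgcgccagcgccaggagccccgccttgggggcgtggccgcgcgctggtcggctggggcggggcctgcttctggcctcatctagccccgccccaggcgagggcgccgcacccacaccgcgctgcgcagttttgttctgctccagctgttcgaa
A match is a description of letters, not a bound site, and no match says only that the letters are not in this window.

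Library totals ran from 4935096 to 9311026 counts. The controls differed from each other far more than the knockdown libraries did, with Pearson's r of log2 CPM (counts scaled to library size) across genes of 0.90 against 0.98 for each knockdown pair. Control 2 lay closer to the knockdown libraries (r of 0.92 to 0.93) than to control 1. Between control 1 and the knockdown libraries r was 0.79 to 0.81. The share of counts on short RNA genes was 8.62% in control 1, 1.68% in control 2 and 0.612% to 0.894% in the knockdown libraries. TERT alone held 7.43% of counts in control 1, 3.54% in control 2 and 0.0451% to 0.249% in the knockdown libraries. Without the short RNA genes and TERT all 17 members called here were still called. AKAP12 was lower in every knockdown library (1008 to 1159 CPM) than in the controls (2870 and 1550 CPM), which is a log2 fold change of -1.04 (SE 0.31). It did not pass the threshold of 0.05 (edgeR adjusted p = 0.0513), and was -0.52 without control 1 and -1.45 without control 2. Of the markers set for SW480, none of 8 epithelial genes was at 0 in any library, with summed levels of 855 and 1550 CPM in the controls and 1419 to 1685 CPM in the knockdown. None of 6 stromal and 8 blood markers was at 0 either, with stromal sums of 271 and 426 CPM against 432 to 526 CPM and blood sums of 62.6 and 120.4 CPM against 100.6 to 131.5 CPM. In a culture, fewer cells holding an RNA and less of it per cell cannot be told apart.

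In the knockdown 11 of the 40 redox genes with enough reads to test rose, 6 fell and 23 did not pass. The 11 that rose were GLRX, MGST2, MGST3, PRDX3, CAT, PRDX4, SRXN1, NQO1, GLRX2, SOD2 and GLRX3, and the 6 that fell were GSTZ1, HMOX1, PRDX2, GPX2, GSS and TXN2. Thus 42.5% of the tested members were called, against 22.6% of all 14536 tested genes. In the upward direction it was 27.5% against 11.2%, and in the downward direction 15% against 11.4%, which is close to the background. The list was chosen with earlier results of these data known, so these shares are a description and not a test. At least 2-fold by the fitted value were 18 of the 40, or 45%, against 31.4% of all. The median log2 fold change was 0.17 over the members and 0.04 over all tested genes. The groups did not overlap in 29 of the 40, or 72.5%, and in 60.1% of all tested genes. Scaling by library size only, which moved the median of all genes from 0.04 to 0.23, gave 9 higher and 3 lower members. Over all genes it called 1668 higher (11.5%) and 982 lower (6.76%), against 1624 and 1658 with TMM scaling, the composition correction used here. DESeq2 called 12 members higher and 7 lower and 30.6% of all genes. Among genes with at least 5 CPM in at least 2 libraries, edgeR called 47.4% of members, against 29% of all. There 31.6% of members rose, against 13.9% of all, and 15.8% fell, against 15.1%. Without any one of the 3 knockdown libraries edgeR called 0 genes and 0 members, while 18 to 19 members and 3796 to 4115 genes had an unadjusted p under 0.05 (23 and 5890 with all libraries).

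**Figure D1:**
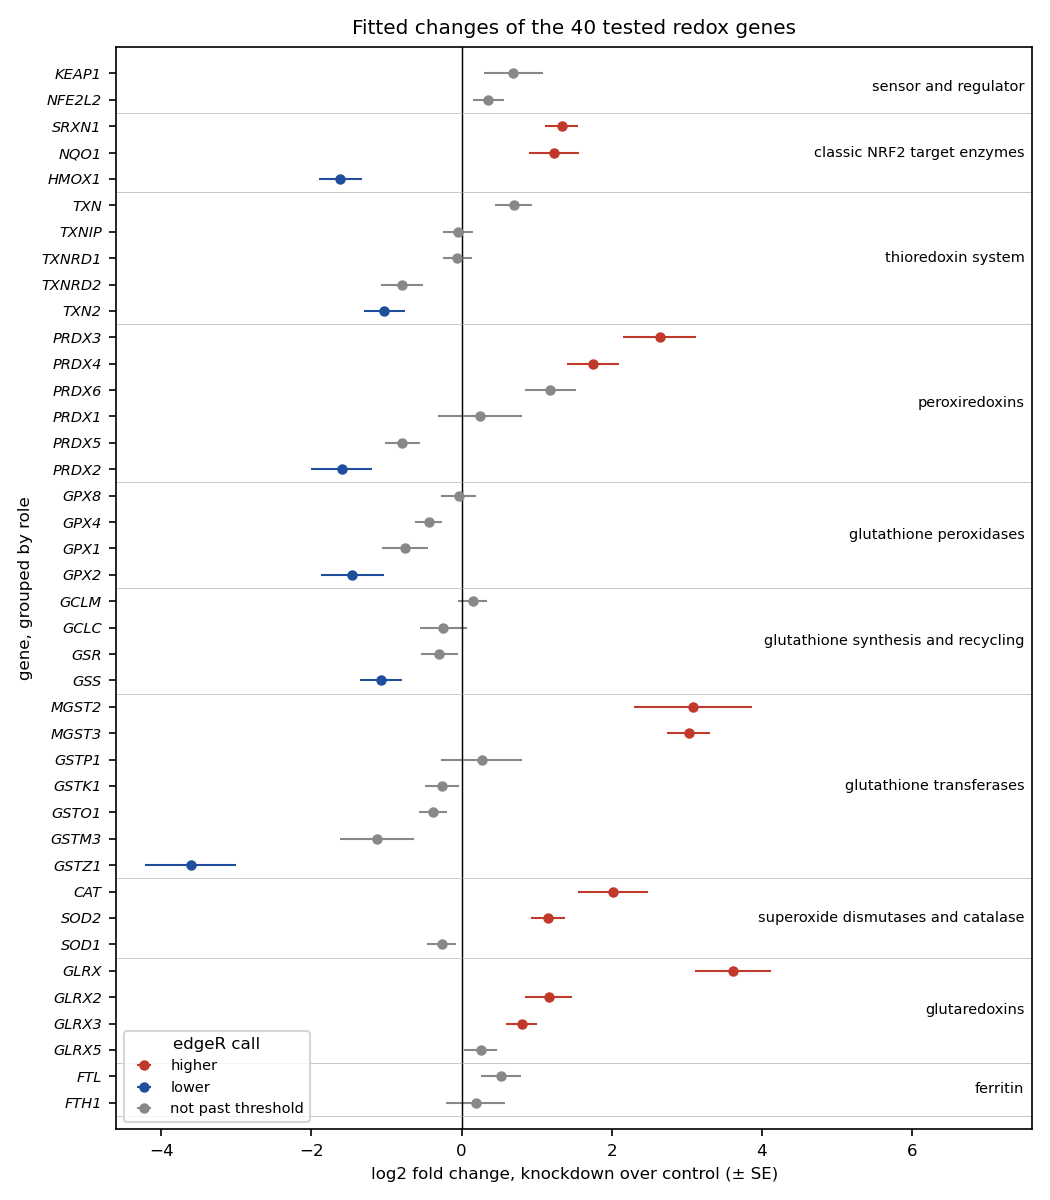
Fitted log2 fold change, knockdown over control, of the 40 tested redox genes, grouped by role, with bars of 1 SE on each side and colours for the edgeR call. The glutaredoxins all lie above 0 and the 4 glutathione peroxidases below it (GPX8 at 0.19 by library size only, 0.17 without control 1 and 0.025 without knockdown replicate 2), while the peroxiredoxins and glutathione transferases hold members on both sides.

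The sensor genes themselves did not pass. NFE2L2, which encodes NRF2, was at 133.7 and 122.9 CPM in the controls and 176.7, 139.4 and 176.4 CPM in the knockdown (log2 fold change 0.36, SE 0.20, edgeR adjusted p = 0.234). KEAP1, the adaptor that marks NRF2 for breakdown, was at 22.3 and 60.1 CPM against 68.2, 69.0 and 63.8 CPM (0.69, SE 0.39, edgeR adjusted p = 0.231). In both genes every knockdown library lay above both controls. For KEAP1 control 1 was far below control 2, and the value was 0.16 without that library and 1.55 without control 2.

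The classic NRF2 targets moved in opposite directions. NQO1, a quinone reductase (chromosome 16, 69709401 to 69726668), was at 86.5 and 181.6 CPM in the controls and 316.0, 295.9 and 337.7 CPM in the knockdown. It rose 2.36-fold (log2 fold change 1.24, SE 0.33, edgeR adjusted p = 0.0406). All knockdown libraries lay above both controls, and the log2 fold change was 0.80 without control 1 and 1.84 without control 2. SRXN1, or sulfiredoxin, which repairs overoxidised peroxiredoxins (chromosome 20, 646624 to 653370), was at 22.3 and 19.4 CPM against 58.9, 50.2 and 48.1 CPM. It rose 2.52-fold (1.33, SE 0.22, edgeR adjusted p = 0.0172). Its controls lay close together, and the log2 fold change was 1.44 without control 1 and 1.20 without control 2. HMOX1, the inducible heme oxygenase (chromosome 22, 35381067 to 35394214), went the other way, from 82.3 and 47.1 CPM to 17.8, 22.6 and 22.7 CPM. It fell 3.06-fold (log2 fold change -1.61, SE 0.29, edgeR adjusted p = 0.0192), with values of -1.17 without control 1 and -2.01 without control 2. By library size only, NQO1 missed the threshold (edgeR adjusted p = 0.0554). The aldo-keto reductase genes AKR1B10 and AKR1C1 were at the limit of detection. AKR1B10 had 2 and 1 control reads and 0, 0 and 1 knockdown reads, and AKR1C1 had 2 and 1 against 0, 2 and 4. Their ratios of knockdown over control, 0.168 (exact 95% counting interval 0.00320 to 2.09) and 1.01 (0.216 to 6.24), have wide intervals that include 1, and 3 counts correspond to 0.307 to 0.735 CPM on the scale used here.

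In the thioredoxin system the mitochondrial thioredoxin was lower and the other members did not pass. TXN2 (chromosome 22, 36467046 to 36481640) was at 263.8 and 144.2 CPM in the controls and 103.5, 98.6 and 97.6 CPM in the knockdown. It fell 2.04-fold (log2 fold change -1.03, SE 0.27, edgeR adjusted p = 0.0399). The knockdown libraries lay close together and below both controls, and the value was -0.53 without control 1 and -1.44 without control 2. The call of TXN2 was lost by library size only (edgeR adjusted p = 0.0561) and with GC offsets (0.0638), a correction for transcript GC content described with the GC values. TXNRD2, the mitochondrial reductase that recharges TXN2, was also lower in every knockdown library (5.84 to 7.13 CPM against 11.8 and 10.2 CPM) but did not pass (-0.80, SE 0.28, edgeR adjusted p = 0.0805). Neither cytosolic counterpart passed. TXN, cytosolic thioredoxin, was at 363.3 and 245.0 CPM against 470.2, 456.8 and 547.0 CPM (0.69, SE 0.25, edgeR adjusted p = 0.0841), and passed by library size only (0.93, edgeR adjusted p = 0.0327). It also passed without control 1 (1.004, edgeR adjusted p = 3.26e-05) and without control 2 (0.40, edgeR adjusted p = 0.0265), so its size differed between the controls. TXNRD1, the cytosolic reductase, overlapped between groups, at 202.3 and 189.4 CPM against 164.6 to 201.3 CPM, and so did TXNIP, the inhibitor of thioredoxin, at 276.6 and 223.4 CPM against 231.8 to 250.3 CPM. Their log2 fold changes of -0.06 (SE 0.20) and -0.05 (SE 0.20) turned to 0.16 and 0.18 by library size only.

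Of the 6 peroxiredoxins PRDX3 and PRDX4 rose, PRDX2 fell and 3 did not pass. PRDX3, the mitochondrial peroxiredoxin (chromosome 10, 119167699 to 119178865), was at 22.8 and 7.68 CPM in the controls and 81.8, 77.7 and 117.4 CPM in the knockdown. It rose 6.23-fold (log2 fold change 2.64, SE 0.49, edgeR adjusted p = 0.0206). Here control 2 was the lower control, and the value was 3.58 without control 1 and 1.98 without control 2. PRDX4, the peroxiredoxin of the endoplasmic reticulum (chromosome X, 23667528 to 23686397), was at 22.8 and 47.7 CPM against 129.8, 99.6 and 129.5 CPM and rose 3.36-fold (1.75, SE 0.35, edgeR adjusted p = 0.0222, 1.33 without control 1 and 2.36 without control 2). PRDX2, a cytosolic peroxiredoxin (chromosome 19, 12796820 to 12801910), was at 303.0 and 110.2 CPM against 65.1, 59.1 and 80.3 CPM. It fell 3.02-fold (-1.60, SE 0.41, edgeR adjusted p = 0.0359). Control 1 was far above control 2, and the value was -0.69 without control 1 and -2.19 without control 2, and with GC offsets it missed the threshold (edgeR adjusted p = 0.0502). The other 3 did not pass. PRDX6, which also has phospholipase activity, came nearest, at 45.6 and 100.5 CPM against 153.5, 162.1 and 184.9 CPM (1.18, SE 0.35, edgeR adjusted p = 0.0501). PRDX5 was lower in every knockdown library, at 46.8 and 42.0 CPM against 31.1, 23.0 and 22.6 CPM (-0.79, SE 0.23, edgeR adjusted p = 0.0506). Both passed by DESeq2 (adjusted p = 0.0101 and 0.0269). PRDX1, the main cytosolic peroxiredoxin, was at 270.9 CPM in control 1, 1215 CPM in control 2 and 1044, 805 and 794 CPM in the knockdown. Its knockdown values fell between the controls, so the direction depends on the control: -0.46 without control 1 and 1.67 without control 2. PRDX1 shares 33 exon bases with MMACHC on the opposite strand, and counting without strand cannot separate them.

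All 4 glutathione peroxidases had fitted values below 0, except that GPX8 was above it by library size only, without control 1 and without knockdown replicate 2, and 1 of the 4 passed. GPX2, the gastrointestinal form (chromosome 14, 64939152 to 64942905), was a low-count gene with 27 and 37 control reads and 17, 13 and 19 knockdown reads, or 6.61 and 4.24 CPM against 1.74, 1.74 and 2.34 CPM. It fell 2.74-fold (log2 fold change -1.45, SE 0.42, edgeR adjusted p = 0.0486), with values of -1.13 without control 1 and -1.80 without control 2. The groups did not overlap, but the call held in 4 alternatives, the fewest of the 17. It was lost by limma-voom (adjusted p = 0.0561), without a filter (edgeR adjusted p = 0.0553), with GC offsets (0.0547), by library size only (0.0715) and without control 1. GPX1, the abundant cytosolic form, was at 366.0 and 177.2 CPM against 153.2, 163.1 and 167.0 CPM (-0.75, SE 0.31, edgeR adjusted p = 0.117, and -0.14 without control 1). GPX4, which reduces lipid peroxides in membranes and guards against ferroptosis, was at 208.9 and 232.5 CPM against 161.9, 160.3 and 167.6 CPM (-0.44, SE 0.18, edgeR adjusted p = 0.119). Its controls lay closer together than those of GPX1, and all knockdown libraries were below both. GPX8, of the endoplasmic reticulum, overlapped between groups, at 27.9 and 21.1 CPM against 24.8, 21.6 and 24.96 CPM (-0.04, SE 0.23). GPX1, GPX2 and GPX4 belong to the selenocysteine enzymes with TXNRD1 and TXNRD2. All 5 of these had fitted values below 0 (median -0.75), with TXNRD1 at 0.16 by library size only, and 1 of the 5 passed. Over all tested genes, 7047 of 14536 were below 0. With GC offsets the median of the 5 was -0.46 and none passed. Of 18 other selenoprotein and iron genes, read beside the members further on, 14 were fitted above 0 and 4 below it.

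Of the genes that make and recycle glutathione, only the RNA of the enzyme for the second step of synthesis passed, and it was lower. GSS, or glutathione synthetase (chromosome 20, 34928433 to 34955798), was at 197.2 and 105.3 CPM in the controls and 77.9, 70.6 and 66.6 CPM in the knockdown. It fell 2.10-fold (log2 fold change -1.07, SE 0.28, edgeR adjusted p = 0.0395). All knockdown libraries lay below both controls, with values of -0.55 without control 1 and -1.49 without control 2. With GC offsets (edgeR adjusted p = 0.0512) and by library size only (0.0563) GSS missed the threshold. The first and rate-limiting step is carried out by glutamate-cysteine ligase. Its catalytic subunit gene GCLC was at 24.3 and 14.5 CPM against 14.0, 14.6 and 19.9 CPM, and its modifier subunit gene GCLM at 78.6 and 69.5 CPM against 81.6, 75.5 and 89.4 CPM. Both overlapped between groups (GCLC -0.24, SE 0.31, and 0.16 without control 1; GCLM 0.15, SE 0.19, and -0.20 with GC offsets). GSR, which reduces oxidised glutathione, also overlapped, at 75.9 and 52.3 CPM against 45.1 to 60.6 CPM (-0.30, SE 0.25, edgeR adjusted p = 0.401).

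Of the glutathione transferases the microsomal MGST2 and MGST3 rose, GSTZ1 fell and 4 did not pass. MGST2, a microsomal transferase that can make leukotriene C (chromosome 4, 139665768 to 139740745), was at 0.490 and 10.2 CPM in the controls and 46.1, 50.2 and 54.2 CPM in the knockdown. It rose 8.5-fold (log2 fold change 3.09, SE 0.79, edgeR adjusted p = 0.0362). Control 1 held only 2 reads of MGST2. The value was 2.29 without control 1, and against control 1 alone the ratio was 101.9 with an exact 95% counting interval of 28.1 to 842. By library size only the call was lost (edgeR adjusted p = 0.0515). MGST3, a related microsomal transferase and peroxidase (chromosome 1, 165630873 to 165656135), was at 7.59 and 13.2 CPM against 83.2, 86.5 and 89.1 CPM. It rose 8.13-fold (3.02, SE 0.29, edgeR adjusted p = 0.0124). Its knockdown libraries were tight, and the value was 2.71 without control 1 and 3.47 without control 2. MGST1, the third of these genes, had 2 and 10 control reads and 17, 8 and 5 knockdown reads, a ratio of 1.26 (exact 95% counting interval 0.627 to 2.71), and was not tested. GSTZ1, which acts in tyrosine breakdown as maleylacetoacetate isomerase (chromosome 14, 77320887 to 77331597), was at 381.4 and 76.8 CPM against 19.8, 20.5 and 15.9 CPM. Its fitted fall of 12.2-fold (-3.61, SE 0.60, edgeR adjusted p = 0.0175) was -2.04 without control 1 and -4.38 without control 2, and control 2 itself lay well below control 1. The other soluble transferases did not pass. GSTP1, the main soluble form in most tumours, was at 265.8 CPM in control 1, 1153 CPM in control 2 and 845, 867 and 850.5 CPM in the knockdown. As with PRDX1, the knockdown lay between the controls, with -0.43 without control 1 and 1.65 without control 2. GSTO1 was at 351.8 and 310.7 CPM against 271.7, 247.5 and 245.5 CPM (-0.38, SE 0.19, edgeR adjusted p = 0.181). GSTK1, the mitochondrial and peroxisomal form, overlapped between groups (-0.26, SE 0.23). GSTM3 was at 12.2 and 4.36 CPM against 2.97, 3.88 and 4.18 CPM (-1.13, SE 0.49, edgeR adjusted p = 0.135, and -0.25 without control 1).

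Catalase and the mitochondrial superoxide dismutase were higher. CAT, the peroxisomal enzyme that splits hydrogen peroxide (chromosome 11, 34438925 to 34472060), was at 3.67 and 12.7 CPM in the controls and 36.2, 31.9 and 36.0 CPM in the knockdown. It rose 4.04-fold (log2 fold change 2.01, SE 0.47, edgeR adjusted p = 0.0295). The value was 1.45 without control 1, where CAT had 15 reads, and 3.20 without control 2. SOD2, which turns superoxide into hydrogen peroxide in the mitochondrial matrix (chromosome 6, 159679116 to 159693321), was at 20.3 and 18.4 CPM against 36.8, 48.1 and 44.3 CPM. It rose 2.23-fold (1.16, SE 0.23, edgeR adjusted p = 0.0221). The control libraries of SOD2 differed little, and so did its values without control 1 (1.23) and without control 2 (1.04). SOD1, the cytosolic copper-zinc enzyme, was at 730.5 and 767.6 CPM against 653.2, 608.6 and 606.5 CPM (-0.27, SE 0.20, edgeR adjusted p = 0.349). The direction of SOD1 was opposite to that of SOD2, with every knockdown library below both controls, but the difference did not pass.

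The glutaredoxins, small enzymes that remove glutathione from protein thiols or carry iron-sulphur clusters, were all fitted above 0 and 3 of 4 passed. Over all tested genes, 7489 of 14536 were above 0 and 11.2% rose. GLRX, the cytosolic thiol enzyme (chromosome 5, 95813849 to 95822873), was at 2.45 and 7.91 CPM in the controls and 54.6, 59.6 and 89.1 CPM in the knockdown. It rose 12.3-fold (log2 fold change 3.62, SE 0.51, edgeR adjusted p = 0.0141). Every knockdown library was above both controls, and the value was 3.09 without control 1 and 4.74 without control 2, where 10 control reads remained. With both controls this was the largest rise of the members, while PRDX3 (3.58) was above it without control 1 and MGST2 without control 2. GLRX2, found in mitochondria and the nucleus (chromosome 1, 193096465 to 193106114), was at 17.1 and 33.6 CPM against 58.9, 55.6 and 57.4 CPM. It rose 2.23-fold (1.16, SE 0.31, edgeR adjusted p = 0.0395, 0.77 without control 1 and 1.70 without control 2). GLRX3, a cytosolic carrier of iron-sulphur clusters (chromosome 10, 130136375 to 130180382), was at 54.9 and 67.6 CPM against 110.6, 93.5 and 116.1 CPM and rose 1.74-fold (0.80, SE 0.21, edgeR adjusted p = 0.0395). Its value was 0.66 without control 1 and 0.92 without control 2. With GC offsets GLRX2 (0.75, edgeR adjusted p = 0.0928) and GLRX3 (0.60, edgeR adjusted p = 0.0749) did not pass, and GLRX2 also missed by library size only (edgeR adjusted p = 0.0539). GLRX5, the mitochondrial iron-sulphur carrier, was at 172.9 and 240.9 CPM against 235.7, 245.5 and 259.7 CPM (0.25, SE 0.22, edgeR adjusted p = 0.414). The groups overlapped in GLRX5, since control 2 lay above 1 knockdown library.

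Ferritin, which stores iron away from peroxide chemistry, did not pass in either chain. The heavy chain gene FTH1 was at 1398 and 545 CPM in the controls and 1024, 1121 and 1171 CPM in the knockdown, between the controls. Its log2 fold change of 0.19 (SE 0.39) was 1.02 without control 1 and -0.37 without control 2. FTL, the light chain gene, was at 868 and 1308 CPM against 1511, 1523 and 1660 CPM, all above both controls (0.52, SE 0.26, edgeR adjusted p = 0.183). FTH1 shares 179 exon bases with BEST1 on the opposite strand, and BEST1 had 27 to 200 reads per library.

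**Figure D2:**
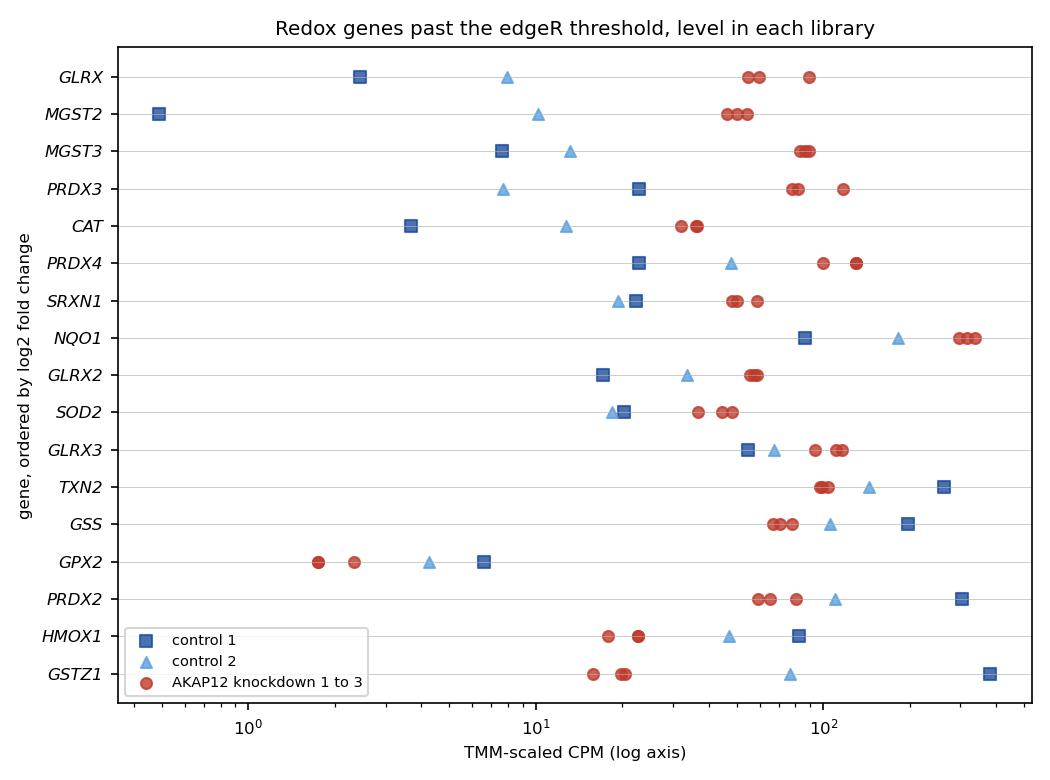
TMM-scaled CPM, on a log axis, of the 17 redox genes past the edgeR threshold in each of the 5 libraries, ordered by fitted change. The knockdown libraries cluster for each gene, while MGST2, with 0.490 and 10.2 CPM, and GSTZ1, with 381.4 and 76.8 CPM, show how far apart the controls lie.

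The order of the controls was alike in many of these genes. In 25 of the 40 tested genes (62.5%) control 2 lay between control 1 and the knockdown mean, as in 57.9% of all tested genes. Among the 17 called members, PRDX3, SRXN1 and SOD2 were the ones in which it did not. With a single control in the fit, the spread was that of the 3 knockdown libraries, and the lone control was assumed to vary like them. Without control 1, 15 members were called higher and 10 lower, while 21.2% of all genes were higher and 18% lower (39.2% in all). Without control 2 it was 18 higher and 15 lower, against 31.1% and 28.5% of all genes (59.6% in all). All 17 called members kept their sign in both fits. In 34 of the 40 members (85%) the sign was the same in both, against 75.6% of all tested genes. The 6 that changed sign were PRDX1, GSTP1, FTH1, TXNIP, GPX8 and GCLC.

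**Figure D3:**
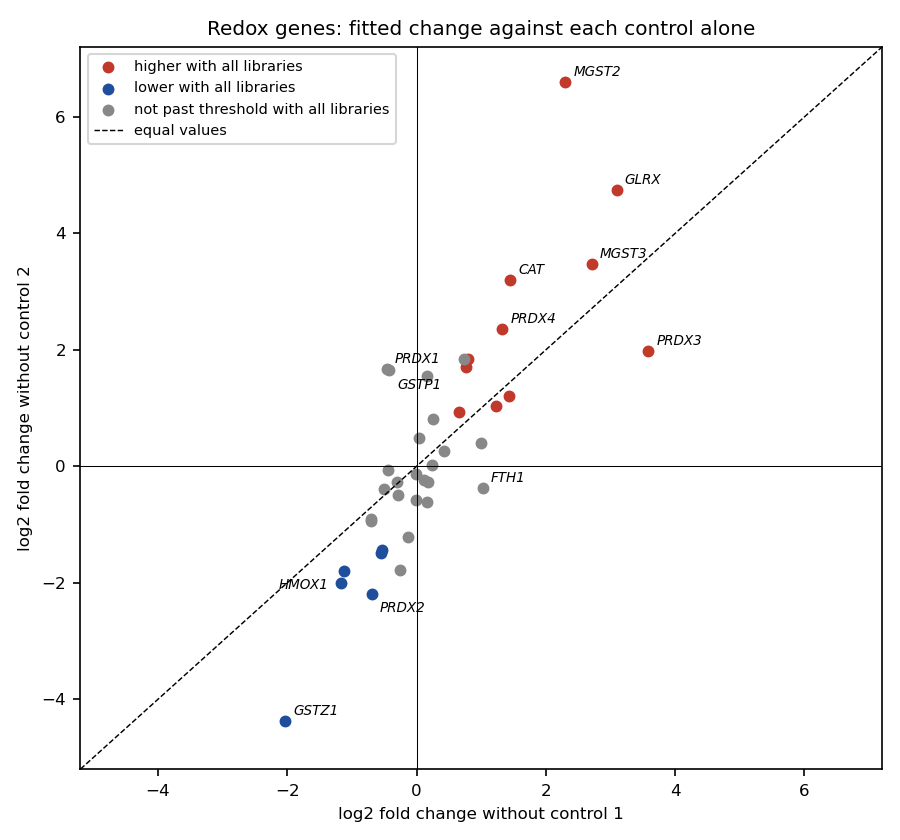
Log2 fold change of each of the 40 tested redox genes without control 1 (x axis) and without control 2 (y axis), with a dashed line of equal values and colours for the call with all libraries. MGST2 (2.29 and 6.59 by the fit, the latter resting on 2 control reads) lies far above the line, PRDX3 (3.58 and 1.98) below it, and PRDX1, GSTP1 and FTH1 lie in the quadrants of opposite sign.

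Transcript GC content moved with the changes. Over the 40 members, Spearman's rho between the log2 fold change and the GC content of the longest GENCODE release 29 transcript was -0.49, and over 14155 tested genes it was -0.20. These are descriptions across genes that share the same 5 libraries. The 11 genes that rose had a GC content of 35.7% to 53.6% (median 45.0%), and the 6 that fell had 52.4% to 58.1% (median 55.2%). With offsets for GC content in each library, 9 of the 11 and 2 of the 6 still passed, and all 17 kept their sign. The members called were then 22.5% higher and 5% lower, against 9.72% and 11% of all genes (20.8% in all), so that the lower share was below the background. The 2 falls that held were GSTZ1 (-3.68, edgeR adjusted p = 0.0230) and HMOX1 (-1.52, edgeR adjusted p = 0.0292). Exon length showed no such relation among the members (rho -0.01).

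**Figure D4:**
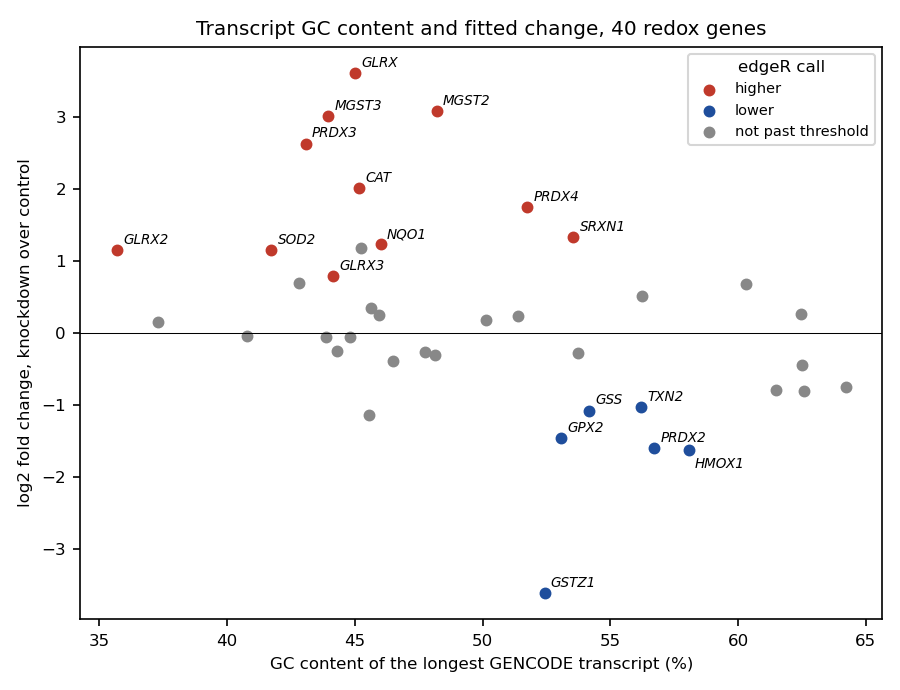
Fitted log2 fold change of the 40 tested redox genes against the GC content in percent of the longest GENCODE transcript, with colours for the edgeR call. The genes that rose lie at 35.7% to 53.6% GC and those that fell at 52.4% to 58.1%.

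Only some of the members were placed on a compartment list, and the counts were mixed. Among those on no such list were HMOX1, which fell, GLRX2 and GLRX3, which rose, and GPX1, which did not pass. The counts therefore do not cover every member of a compartment. In the mitochondrial matrix PRDX3 and SOD2 rose, TXN2 fell, and TXNRD2 and GLRX5 did not pass. That is 40% higher and 20% lower of only 5 listed genes. Of the 4 tested genes listed for the endoplasmic reticulum (PRDX4, GPX8, MGST2 and MGST3), 3 rose and none fell, with a median of 2.39. By library size only, 2 of these 4 rose. Of 14 genes listed as cytosolic, GLRX, NQO1 and SRXN1 rose (21.4%) and PRDX2 and GSS fell (14.3%), with a median of 0.20. Over all tested genes 11.2% rose and 11.4% fell, so the cytosolic share that fell was near the background. The 43 genes together held 0.621% and 0.813% of control counts and 0.927% ± 0.0159 (SD, n = 3) of knockdown counts. The knockdown share was above both controls, and an exact two-sided permutation test gave p = 0.1, the smallest that 2 against 3 libraries allow. With TERT and short RNA genes taken out of the total, the shares were 0.739% and 0.858% against 0.936% ± 0.0146 (SD, n = 3), and the difference of the group means went from 0.210 to 0.137 percentage points. Without FTH1 and FTL the shares were 0.433% and 0.627% against 0.644% ± 0.0135 (SD, n = 3), where control 2 and knockdown replicate 2 (0.629%) nearly met.

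A wider list of 90 redox and glutathione genes outside the 43, also chosen with earlier results of these data known, was read beside them. Of 81 tested, 15 rose (18.5%, against 11.2% of all tested genes), 10 fell (12.3%, against 11.4%) and 56 did not pass. The share that fell was near the background. The median log2 fold change was 0.37 against 0.04 over all tested genes. Among 33 other NRF2 targets and partners 5 rose (15.2%) and 6 fell (18.2%), and among 18 selenoprotein and iron genes 4 rose (22.2%) and 1 fell (5.56%). The 4 risers with the smallest p were SELENOF (listed as SEP15), SELENOT (listed as SELT), TXNDC5 and MAFG. SELENOF, a selenoprotein of the endoplasmic reticulum, was at 13.2 and 11.7 CPM in the controls and 46.4, 49.4 and 67.3 CPM in the knockdown (log2 fold change 2.13, SE 0.27, edgeR adjusted p = 0.0131). SELENOT, also of that compartment, was at 7.35 and 8.03 CPM against 27.8, 28.7 and 38.1 CPM (2.03, SE 0.27, edgeR adjusted p = 0.0135). The controls of both lay close together, unlike those of most members. MAFG, a small MAF protein that pairs with NRF2 on DNA, was at 10.0 and 21.6 CPM against 71.4, 83.0 and 79.3 CPM (2.27, SE 0.35, edgeR adjusted p = 0.0158, 1.85 without control 1 and 2.92 without control 2). TXNDC5, a thioredoxin-fold protein of the endoplasmic reticulum, had a value of 2.13 (SE 0.30, edgeR adjusted p = 0.0141) but shares 2930 exon bases with the read-through gene BLOC1S5-TXNDC5, so its reads cannot be given to one gene. It was at 26.7 and 46.6 CPM against 159.6, 142.9 and 180.9 CPM.

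The 4 other genes that fell with the smallest p were EEFSEC, SQSTM1, GPX3 and HMOX2. EEFSEC, the elongation factor that delivers selenocysteine, was at 23.0 and 23.7 CPM in the controls and 9.83, 6.29 and 7.5 CPM in the knockdown (log2 fold change -1.56, SE 0.27, edgeR adjusted p = 0.0183). SQSTM1, an autophagy receptor that also binds KEAP1, was at 1518 and 955 CPM against 512, 442 and 427 CPM (-1.43, SE 0.26, edgeR adjusted p = 0.0206, -1.05 without control 1 and -1.76 without control 2). GPX3, a secreted glutathione peroxidase, was at 40.2 and 34.4 CPM against 17.7, 12.1 and 11.7 CPM (-1.43, SE 0.26, edgeR adjusted p = 0.0206). HMOX2, the constitutive heme oxygenase, was lower like HMOX1, at 171.5 and 151.0 CPM against 92.9, 79.7 and 84.3 CPM (-0.91, SE 0.19, edgeR adjusted p = 0.0234). All 4 had every knockdown library below both controls, and exons of SQSTM1 and HMOX2 overlap genes on the opposite strand (C5orf45 and MGAT4B, and NMRAL1). SLC7A11, the cystine importer that feeds glutathione synthesis, was at 8.33 and 2.06 CPM against 4.50, 6.70 and 5.16 CPM, between the controls (0.15, SE 0.59, 1.39 without control 1 and -0.65 without control 2).

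The authors' deposited table gave 12 of the 43 genes an adjusted p under 0.05 on the higher side and 7 on the lower side, and an adjusted p of NA for 2. The share of all genes past 0.05 in that table was not computed. In the DESeq2 fit used here, 30% of the tested members were higher, against 15% of all tested genes. On the lower side it was 17.5% against 15.6%, which is near the background. All 40 tested members had the same sign there as in the fit used here. In the authors' deposited table GLRX was at 3.64, GSTZ1 at -3.65 and PRDX6, which did not pass here, at 1.18 (adjusted p = 0.0104). Both analyses start from the same 5 libraries, so their values are not independent.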

How the data were processed

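RNA was sequenced in 2 control and 3 AKAP12 knockdown libraries. The deposited counts are whole reads per gene and came from featureCounts 1.6.2 over exons, per the file headers. A read could count for several overlapping genes and no strand or multi-mapping option was set, so reads of overlapping or near-identical genes are uncertain. STAR 2.7, DESeq2 1.22 and hg38 are named in the submitters' processing notes. Nothing used here states whether molecular identifiers were collapsed, and intervals and floors therefore cover counting error alone. Totals per library ran from 4935096 to 9311026. The authors' deposited table adds, for 1 comparison, a log2 fold change, its standard error, a mean signal, a score (the test statistic) and p-values. Its sign convention was inferred by comparing it with the fit (r = 0.999 across genes).

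The filter filterByExpr (minimum count 10) left 14536 of 26485 genes and 40 of 43 members. Libraries were scaled by TMM and tested in R 4.3.3 with edgeR 4.0.16 (glmQLFit and glmQLFTest), two-sided, with no covariate. Adjustment was by Benjamini-Hochberg over all tested genes (threshold 0.05). The SE equals the size of the log2 fold change over the root of the F statistic. Each fold change has the control below the line, and printed CPM are TMM-scaled, except the summed marker levels, which use library totals. The scripts were tested on simulated counts. Alternatives were DESeq2 1.42.0, limma-voom (limma 3.58.1), RLE scaling, library size only, no filter, 5 CPM in 2 libraries, removal of TERT and short RNA genes, a replicate block and each library left out. GC offsets (smooth span 0.2) were chosen after seeing the data. No label ties the replicates to separate cultures, so the p-values reflect spread between samples that may be technical. The members and lists were chosen with earlier results of these data known. Members past the threshold are given in full and the others by range or nearness to it, and of the other redox genes the 4 with the smallest p in each direction and SLC7A11 were named. Some items are not reported here.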

Additional observations from a re-analysis of the deposited data

How the results depend on the processing

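All 17 called members kept their direction in every alternative that tested them (GPX2 was not tested at 5 CPM in 2 libraries). RLE scaling, DESeq2 and removal of TERT and short RNA genes kept all 17 calls and added PRDX5 and PRDX6. By library size only 3 members were lower, and with GC offsets 2. With the replicate number as a block 210 genes passed (1.44%), with 3 members higher (GLRX, MGST3 and PRDX3) and 1 lower (GSTZ1), and 2 other redox genes higher and 0 lower by edgeR, while 3320 genes and 16 members had an unadjusted p under 0.05. Deviations of same-numbered libraries from their group mean correlated at -0.05 and -0.08. The deviations of the controls mirror each other, since they are taken from the mean of only 2 libraries. These values therefore cannot decide whether the shared numbers pair the samples.

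Leaving out 1 library at a time gave 0 to 8663 genes, 0 to 18 members higher and 0 to 15 lower, and 0 to 42 and 0 to 20 of the other redox genes. AKAP12 ran from -1.45 to -0.52 over these fits. It passed by DESeq2 (-1.09), limma-voom (-0.98), without a filter (-0.996), at 5 CPM (-1.06), without TERT and short RNA genes (-1.04) and with GC offsets (-1.16). By RLE scaling (-1.09), by library size only (-0.79) and with the replicate block (-0.93) it did not pass. In the authors' deposited table, from the same 5 libraries, AKAP12 was at -1.06 (adjusted p = 0.0124).

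Signs turned for genes that had not passed. By library size only these were TXNRD1 (0.16), TXNIP (0.18) and GPX8 (0.19), and with GC offsets GCLM (-0.20) and SLC7A11 (-0.32). Over the fits without 1 library TXNRD1 ran from -0.14 to 0.032, TXNIP from -0.23 to 0.11, PRDX1 from -0.46 to 1.67, GPX8 from -0.27 to 0.17, GCLC from -0.62 to 0.16, GSTP1 from -0.43 to 1.65, FTH1 from -0.37 to 1.02 and SLC7A11 from -0.65 to 1.39. The causes were not tested.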
